A study of Drosophila melanogaster with 24 samples.

Results

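The genes described here are the digestive serine proteases of the fly gut, namely the Jonah family, the trypsin family and the related genes yip7, Ser6, Ser8 and Ser12. The rule that picks them is a list of 31 gene symbols without a cut on a measured value. The list was chosen with earlier results of these data known. Of the 31, 27 have a row among the 12024 genes of the table of deposited values: 15 of 16 Jonah genes, 9 of 11 trypsins and 3 of the other 4. Jon66Cii, gammaTry, deltaTry and Ser12 have no row and were not analysed here. Each library was made from total RNA of 20 whole males, collected at 0 to 16 h of adult age from the isogenic strain w1118iso/Dp(1;Y)y+iso;2iso;3iso. F1 flies were reared for life at 18 °C (F1-18, 4 libraries) or at 25 °C (F1-25, 3 libraries), whereas F2 flies all lived at 25 °C. F2 embryos were washed, with hypochlorite among the washes, and put on food in which F1 males had left faeces, and the methods of the study describe neither the washing nor the transfer for F1 embryos. In the names of the F2 groups, M is followed by the rearing temperature of the F1 males whose faeces were used (microbiome) and G by that of the F1 parents (germline): F2-M18-G18 with 4 libraries, F2-M18-G25 with 4, F2-M25-G18 with 3 and F2-M25-G25 with 4. In F1-25 and in F2-M25-G18 the replicate C was not analysed here. The sources conflict on the crossed groups. The library names, read with the microbiome first, give the grouping used here, but the titles and source labels of the same samples give the microbiome and the germline the other way round. With those labels F2-M18-G25 and F2-M25-G18 exchange names. The study's own list of libraries uses the names with M and G spelled out and, as here, has no replicate C in F2-M25-G18. Its summary of bacteria in the flies likewise explains the name F2-18-25 as offspring of F1-25 parents given the microbiome of F1-18. If the other labels hold, each microbiome comparison below becomes a germline comparison with the same values.

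Serine proteases of this kind are made by midgut cells as inactive precursors and released into the gut lumen, where they cut dietary protein. Trypsins cleave after lysine and arginine, and the Jonah proteases belong to the chymotrypsin-like branch of the same fold. Many lie in tandem arrays that arose by duplication. Their transcript levels in flies are known to follow feeding state, diet and gut bacteria. In RNA of whole flies, fewer gut cells and less RNA per gut cell cannot be told apart.

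The values are normalised read counts as deposited, brought by the authors to a common library size, and they are not whole numbers. The values of a library summed to 3702933 to 4398050. In the 19 libraries whose low values could be traced back to whole reads, 1 read was worth 0.631 to 1.79 units, so low values rest on few reads. The total of reads that these steps imply was within 10% of the number of aligned reads stated for the library of the same name in 3 of the 19, and 0.301 to 6.92 times that number in the other 16. The cause was not tested, and the groups were taken from the labels throughout. A value given as 0 is 0 after rounding. In 7150 of the 12024 genes (59.5%) F2-M25-G25 C and D hold calculated values, each of which is a whole number added to the mean of A and B. Jon65Aiii, Jon65Aiv, alphaTry, kappaTry and yip7 are among these genes, and for them only A and B of that group were used. The other 22 members with a row were measured in all 4 replicates. Replicate C of F2-M25-G25 stands apart from its group in these members, was left out of the tests and is described on its own below. It stands apart in the genes under test, so leaving it out is not independent of the results. With it entered where measured, the members called higher in F1-25 than in F2-M25-G25 fell from 22 to 16. Those called in the contrast of the F1 and F2 differences, given below, fell from 10 to 2. The calls between F2 groups stayed at 0. Genes of the male reproductive tract summed to 7772 to 13880 in the F1 libraries, and the yolk protein genes Yp1, Yp2 and Yp3 together to at most 66.4. Differences are given as the difference of group means of log2(value + 2) ± SE from limma, with adjusted p over the 11302 genes with 3 or more libraries at 10 or above, and a gene is called below an adjusted p of 0.05. On this scale the change of low genes is understated. Only uniquely aligned reads were counted, and the Jonah and trypsin arrays hold close copies, so the split of reads between neighbours such as alphaTry and betaTry, Jon25Bi and Jon25Bii, Jon99Ci and Jon99Cii or Jon99Fi and Jon99Fii is uncertain.

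The members differed widely in level. Per kilobase of exon and averaged over the libraries of the fit, alphaTry had the highest level at 1106 units, followed by Jon65Aiii at 551, betaTry at 349.8, yip7 at 347 and Jon65Aiv at 345. Jon66Ci, at 1.14 units per kilobase, was the lowest. The 27 members together made up 0.176% to 0.370% of the summed values in F1-25, 0.0397% to 0.139% in F1-18, and 0.0316% to 0.0579% in F2-M18-G18, F2-M18-G25 and F2-M25-G18. The mean was highest in F1-25 for 26 of the 27 members, and in F1-18 for Jon74E. F1-25 and F1-18 held the highest and second highest mean, in either order, in 23 of the 27. These counts of highest means were not made over all genes. Within groups, some libraries were low or high in most members. F1-18 C had the lowest value of its group in 25 of 27 members, against 20.5% of all genes tested. F1-25 D had the highest of its group in 26 of 27, against 36.3% of genes, and F2-M18-G18 D the highest in 21 of 27, against 25.4%.

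**Figure D1:**
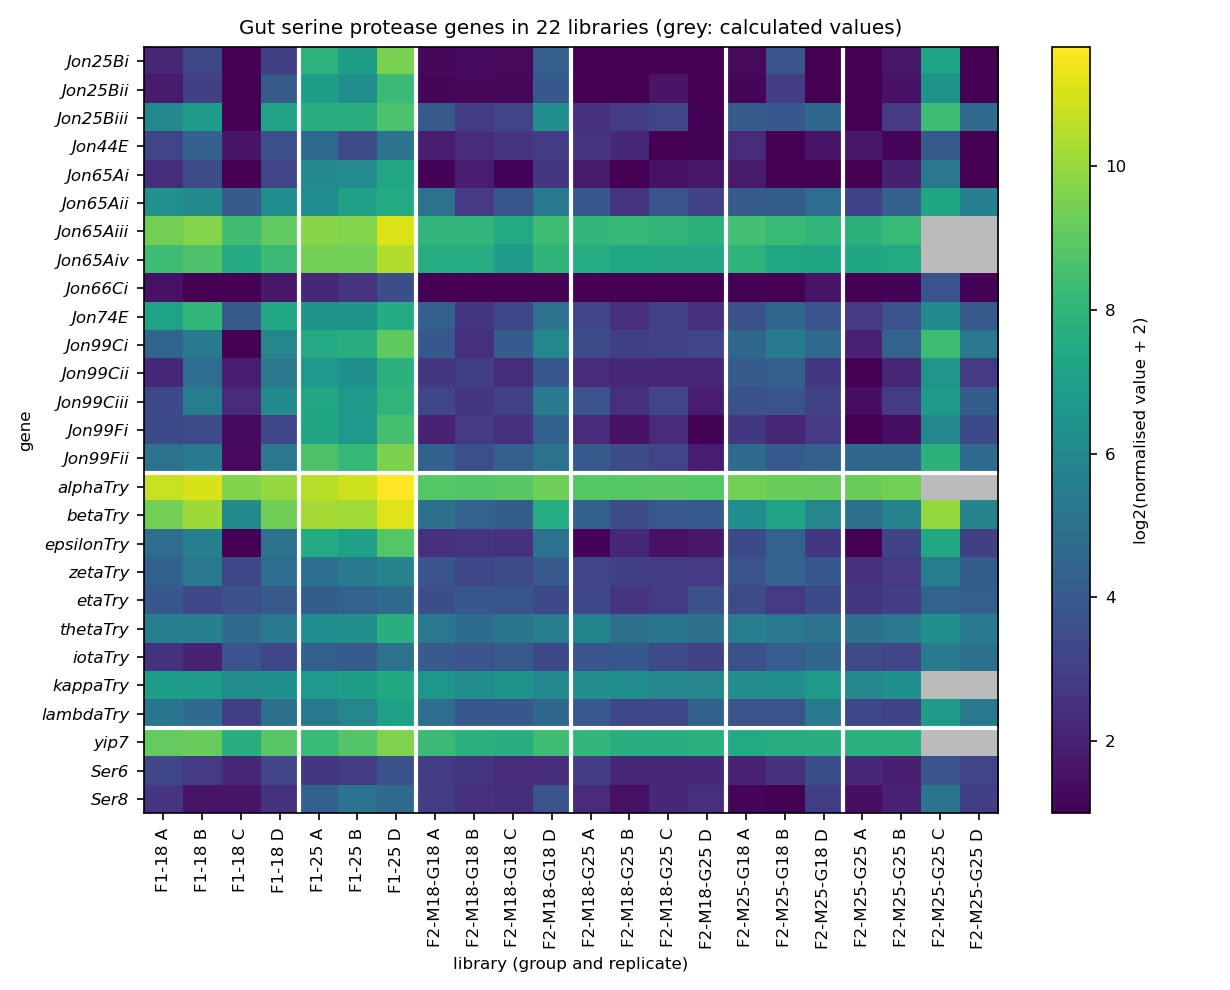
Each row is a member gene with a row in the table, each column a library, and the colour is log2(normalised value + 2). Grey cells are calculated values that were not used. The F1-25 columns are the brightest in most rows, F1-18 C is dark within F1-18, and F2-M25-G25 C is bright among the F2 columns.

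The first comparison asks what rearing at 18 °C instead of 25 °C did in the F1 flies. The proteases were lower in the cold-reared flies. Of the 25 members that passed the filter, 15 were called lower in F1-18 than in F1-25 and 0 were called higher, where 12.7% of all genes tested were called lower. The median difference of the 25 members was -1.64, against 0.01 over all genes tested, and the difference was negative in 25 of 25. In Jon74E and yip7, however, the median value was higher in F1-18 than in F1-25 (153.5 against 88.7 and 507 against 445). In both genes F1-18 C was far below the rest of F1-18, at 14.8 and 208, so their negative sign depended on that library. Jon66Ci and Ser6 did not pass the filter. Another 6 members (Jon25Bi, Jon25Bii, Jon44E, Jon65Ai, Jon99Fi and Ser8) passed only with the F1-25 libraries counted, so a difference from F1-25 was built into their entry. Of the 19 that passed without them, 10 were called lower. Every F1-18 library lay below every F1-25 library in 18 of the 25 members, and this held for 15.1% of all genes tested. These 18 include Jon25Bi, Jon25Bii, Jon65Ai, Jon99Fi and Ser8, for which a part of the separation was built in by the filter. By family, 10 of 14 Jonah genes, 4 of 9 trypsins and 1 of 2 in the group of yip7 and Ser8 were called. The Jonah calls include Jon25Bi, Jon25Bii, Jon65Ai and Jon99Fi, and the call of the last group is Ser8. These passed the filter only with the F1-25 libraries, whereas all 9 trypsins passed without them. The family counts are therefore not on equal terms.

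Jon25Bi and Jon25Bii had the largest differences of the list. The 3 Jon25B genes lie in tandem on the minus strand of chromosome arm 2L at 4949941 to 4955144 (release 6 of the fly genome). Jon25Bi had 2.39, 8.02, 0 and 6.09 in F1-18 and 232, 123 and 724 in F1-25. Its F2 values were 0.36, 0.459, 0.39 and 16.9 in F2-M18-G18, 0.419, 12.2 and 0 in F2-M25-G18, 0, 0, 0 and 0 in F2-M18-G25 and 0, 1.19 and 0 in F2-M25-G25. Among the libraries of the tests the gene thus stood above 100 units in F1-25 alone, and it was near 0 in most F2 libraries. Jon25Bii, its neighbour at a distance of 1142 bp, had 1.45, 6.02, 0 and 14 in F1-18 and 121, 75.9 and 304 in F1-25. The F2 values of Jon25Bii were 0.291, 0.371, 0.315 and 13.4 in F2-M18-G18, 0.197, 5.55 and 0 in F2-M25-G18, 0.0267, 0, 0.931 and 0.0122 in F2-M18-G25 and 0, 0.838 and 0 in F2-M25-G25. The same libraries were high for both genes, with a Spearman correlation of 0.941 over 20 libraries. Jon25Biii, the third gene of the array, had 58.5, 115, 0 and 148 in F1-18 and 209, 207 and 391 in F1-25. In F2, Jon25Biii had 13.5, 5.14, 7.36 and 72.3 in F2-M18-G18, 14.7, 13.1 and 22 in F2-M25-G18, 3.36, 5.33, 7.4 and 0.18 in F2-M18-G25 and 0, 4.82 and 24.6 in F2-M25-G25. It differed from its neighbours in being above 50 units in 3 of 4 F1-18 libraries. Between F1-18 and F1-25 the difference was -5.74 ± 0.74 for Jon25Bi (adjusted p = 1.88e-05) and -4.71 ± 0.69 for Jon25Bii (adjusted p = 7.05e-05). For Jon25Biii it was -2.76 ± 1.07 and was not called (adjusted p = 0.0658), although the groups did not overlap.

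The Jon65A genes and yip7 lie within 19.2 kb on chromosome arm 3L, at 6035216 to 6054443, and are unequal in both level and response. Jon65Aiii, the most abundant Jonah gene, had 687, 814, 331 and 534 in F1-18 and 869, 825 and 2115 in F1-25. Its values in F2 were 258, 266, 178 and 326 in F2-M18-G18, 351, 295 and 256 in F2-M25-G18, 259.9, 270.2, 249.6 and 225 in F2-M18-G25 and 231 and 296 in F2-M25-G25. All 13 F2 values lay below those of F1-25. F1-18 lay above them too, except for F1-18 C at 331. Jon65Aiv, at 10621 bp from Jon65Aiii, had 323, 404, 187 and 305 in F1-18 and 676, 664 and 1355 in F1-25. For Jon65Aiv in F2 the values were 189, 190.4, 114 and 241 in F2-M18-G18, 236, 163 and 158 in F2-M25-G18, 194, 166, 172 and 169.5 in F2-M18-G25 and 154 and 182 in F2-M25-G25. Both genes had F1-18 below F1-25 without overlap, with a difference of -1.03 ± 0.28 for Jon65Aiii (adjusted p = 0.0115) and -1.52 ± 0.26 for Jon65Aiv (adjusted p = 0.000296). The call for Jon65Aiii was lost without F1-25 D, where its difference was -0.59 (adjusted p = 0.0995). It was also lost with only the groups compared in the fit (-1.03 ± 0.36, adjusted p = 0.0949). Jon65Ai, a much rarer transcript at the other end of the array, had 3.24, 9.02, 0 and 7.31 in F1-18 and 61.9, 67.6 and 165 in F1-25. Its 14 F2 values of the tests ranged from 0 to 4.42. With a difference of -3.98 ± 0.53 (adjusted p = 2.49e-05) it was among the most changed members, while its neighbour Jon65Aii, 277 bp away on the opposite strand, was not called (-1.23 ± 0.60, adjusted p = 0.143). Jon65Aii ranged from 15.4 to 81.6 in F1-18, from 70.2 to 181 in F1-25 and from 4.18 to 47.3 in F2. In contrast, yip7, 2979 bp from Jon65Aiv on the same strand, had 546, 579, 208 and 467 in F1-18 and 294, 445 and 760.1 in F1-25. In F2 it had 308, 219, 209.7 and 318 in F2-M18-G18, 182, 199 and 209.8 in F2-M25-G18, 262, 210.1, 206 and 220.2 in F2-M18-G25 and 218 and 219 in F2-M25-G25. The F1 groups of yip7 overlapped, and its difference was -0.15 ± 0.28 (adjusted p = 0.755).

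On chromosome arm 3R the Jon99C genes (29922216 to 29926189) and the Jon99F genes (30487016 to 30489895) were all called. Jon99Ci had 20.4, 41.1, 0 and 55 in F1-18 and 182, 199.6 and 511 in F1-25. The F2 values of Jon99Ci were 13.3, 3.41, 15 and 55.6 in F2-M18-G18, 21.7, 39.2 and 22.8 in F2-M25-G18, 8.97, 6.1, 6.32 and 7.26 in F2-M18-G25 and 2.02, 19.2 and 36.3 in F2-M25-G25. F1-18 thus overlapped with the F2 groups but not with F1-25. Jon99Cii, 610 bp from Jon99Ci, had 2.7, 26.1, 1.64 and 34.9 in F1-18 and 100.5, 80.5 and 221 in F1-25, and Jon99Ciii had 8.28, 42.1, 2.8 and 65.5 in F1-18 and 165, 104 and 248 in F1-25. In F2 Jon99Cii had 4.46, 6.18, 3.33 and 13 in F2-M18-G18, 15.2, 17.2 and 4.65 in F2-M25-G18, 3.08, 2.62, 2.72 and 2.46 in F2-M18-G25 and 0, 2.45 and 5.08 in F2-M25-G25. For Jon99Ciii the F2 values were 7.69, 4.42, 6.65 and 38.5 in F2-M18-G18, 10.8, 11.6 and 6.62 in F2-M25-G18, 11.2, 3.39, 7.33 and 1.5 in F2-M18-G25 and 0.706, 5.35 and 15.5 in F2-M25-G25. Between F1-18 and F1-25 the difference was -3.87 ± 0.87 in Jon99Ci, -3.42 ± 0.65 in Jon99Cii and -3.07 ± 0.76 in Jon99Ciii (adjusted p = 0.003, 0.00075 and 0.00564). Of the Jon99F pair, Jon99Fi had 8.5, 9.03, 0.511 and 7.53 in F1-18 and 155, 99.5 and 359 in F1-25, with 1.98, 4.97, 3.38 and 17.6 in F2-M18-G18, 4.64, 2.46 and 4.78 in F2-M25-G18, 2.86, 0.83, 2.77 and 0.0714 in F2-M18-G25 and 0, 0.73 and 8.48 in F2-M25-G25. Jon99Fii was the more abundant of the pair, with 29.4, 39.1, 0.425 and 34.9 in F1-18 and 406, 276 and 739.9 in F1-25. Its F2 values were 17.9, 10.2, 17.1 and 30.0 in F2-M18-G18, 24.2, 14.3 and 17.1 in F2-M25-G18, 14.1, 8.84, 7.23 and 1.6 in F2-M18-G25 and 21.8, 21.5 and 24.3 in F2-M25-G25. Every F1-25 library of both genes was above every other library of the tests. The difference between F1-18 and F1-25 was -4.62 ± 0.61 in Jon99Fi (adjusted p = 2.31e-05) and -4.57 ± 0.67 in Jon99Fii (adjusted p = 7.00e-05).

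Jon74E, Jon44E and Jon66Ci lie outside the arrays. Jon74E (3L, 17548077 to 17549127) had 144, 263, 14.8 and 163 in F1-18 and 88.1, 88.7 and 188 in F1-25, so that 2 of 4 F1-18 libraries lay between the F1-25 libraries, 1 above and 1 below them. Its F2 values ran from 3.42 to 29.4. The difference in F1 was -0.19 ± 0.65 (adjusted p = 0.872), and an interval of 2 SE on either side of it spans a decrease and an increase. Jon44E (2R) ranged from 0.92 to 17.0 in F1-18, from 9.15 to 31.7 in F1-25 and from 0 to 5.14 in F2, and was not called in F1 (adjusted p = 0.107). Jon66Ci (3L) stayed at or below 1.21 in F1-18 and had 2.68, 4.27 and 9.65 in F1-25, so that these groups did not overlap. It was at most 0.962 in the F2 libraries of the tests.

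**Figure D2:**
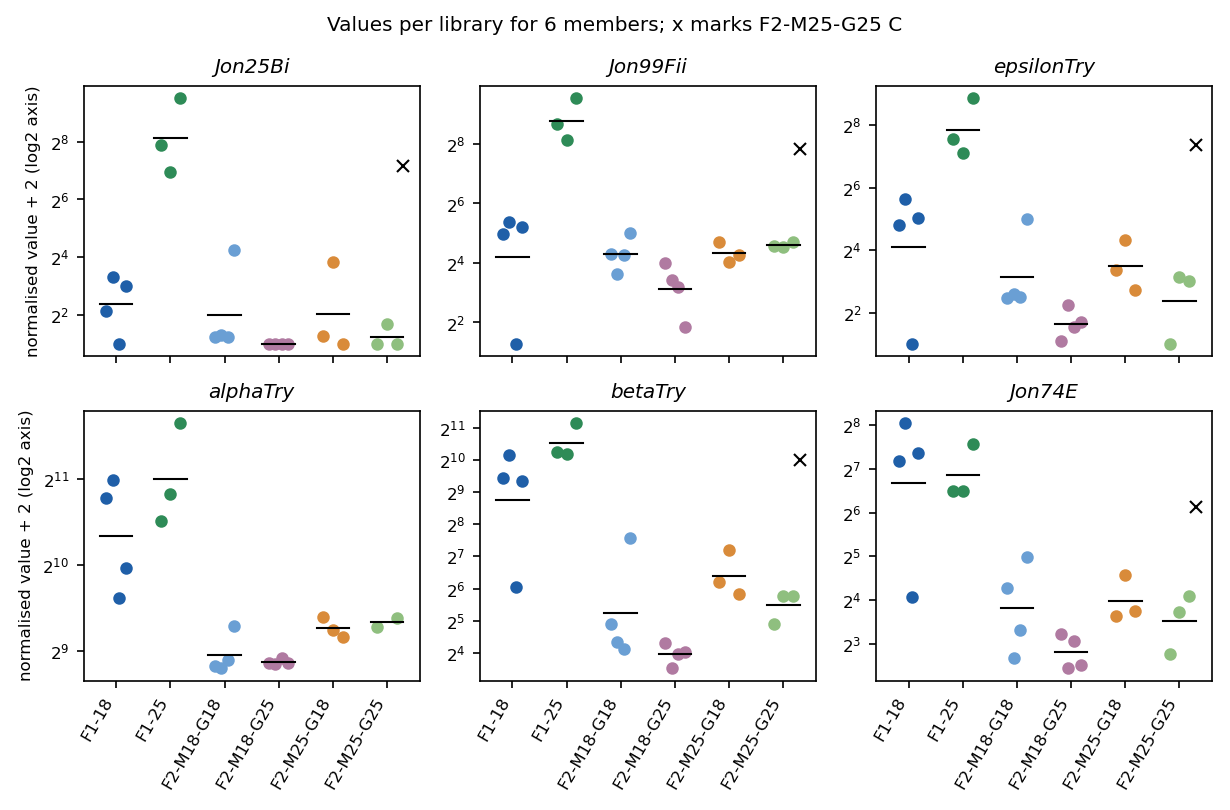
Normalised value + 2 per library on a log2 axis for 6 members, by group, with bars at the mean on the log scale. Crosses mark F2-M25-G25 C, which was left out of the tests and is not shown for alphaTry, where its value is calculated. In Jon25Bi, Jon99Fii and epsilonTry the F1-25 libraries and the cross are the highest, whereas alphaTry, betaTry and Jon74E are high in most libraries of both F1 groups.

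All 9 trypsins with a row lie within 20.7 kb on chromosome arm 2R, at 11336840 to 11357537. alphaTry, the most abundant member, had 1749, 2028, 783 and 998 in F1-18 and 1456, 1806 and 3215 in F1-25. In F2 its values were 452, 442, 474 and 623 in F2-M18-G18, 669, 603 and 571 in F2-M25-G18, 463, 460.0, 479 and 463 in F2-M18-G25 and 619 and 667 in F2-M25-G25. Each F2 library was below each F1 library, and the F1 groups overlapped. betaTry, 1205 bp from alphaTry on the opposite strand, had 684, 1129, 64.7 and 651 in F1-18 and 1199, 1159 and 2269 in F1-25. The F2 values of betaTry were 28.2, 18.5, 15.6 and 190.1 in F2-M18-G18, 71.5, 144 and 55 in F2-M25-G18, 17.9, 9.48, 13.6 and 14.5 in F2-M18-G25 and 28.2, 52.2 and 52.1 in F2-M25-G25. Here F1-18 C was far below the other 3 libraries of its group, and in the range of the F2 libraries. epsilonTry lies between alphaTry and betaTry and had 25.8, 47.1, 0 and 30.2 in F1-18 and 186, 135 and 460.1 in F1-25. For epsilonTry the F2 values were 3.57, 4.06, 3.71 and 29.9 in F2-M18-G18, 8.37, 18.2 and 4.67 in F2-M25-G18, 0.131, 2.72, 0.882 and 1.24 in F2-M18-G25 and 0, 6.88 and 5.99 in F2-M25-G25. F1-18 and F2 overlapped in this gene, and F1-25 was above both. In F1 epsilonTry was lower in the cold (-3.73 ± 0.83, adjusted p = 0.0026), while alphaTry (-0.66 ± 0.25, adjusted p = 0.0642) and betaTry (-1.78 ± 0.74, adjusted p = 0.0837) were not called. Under equal library totals the call was made for alphaTry (-0.82, adjusted p = 0.020), and without F1-18 B it was made for betaTry (-2.24, adjusted p = 0.0369).

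Of the other trypsins, thetaTry, lambdaTry and iotaTry were called in F1. kappaTry had 121, 116, 71.8 and 80.1 in F1-18 and 100.5, 124 and 177 in F1-25, with overlap between the F1 groups. Its F2 values were 95.5, 74.9, 88.8 and 60.7 in F2-M18-G18, 75.4, 71.8 and 106 in F2-M25-G18, 75.2, 69.6, 58.9 and 56 in F2-M18-G25 and 59.6 and 79.5 in F2-M25-G25. The difference in F1 was -0.45 ± 0.21 (adjusted p = 0.135). thetaTry had 46.9, 48.1, 24.5 and 37.3 in F1-18 and 71.4, 75.4 and 208 in F1-25, and in F2 36.6, 25.1, 33.7 and 44 in F2-M18-G18, 41.9, 36.3 and 30.4 in F2-M25-G18, 53.3, 28.8, 32.6 and 28.2 in F2-M18-G25 and 28.4, 36.6 and 40.9 in F2-M25-G25. In this gene F1-18 lay below F1-25 and overlapped with F2. lambdaTry, which ends 5 bp from kappaTry on the opposite strand, had 33.1, 24.1, 5.77 and 28.8 in F1-18 and 37.3, 56.4 and 130.2 in F1-25. In F2 lambdaTry had 26.3, 12.8, 13.3 and 22 in F2-M18-G18, 11.2, 11.1 and 41.3 in F2-M25-G18, 13.6, 7.74, 8.04 and 17.6 in F2-M18-G25 and 7.58, 6.9 and 37.3 in F2-M25-G25. iotaTry had 3.97, 2.01, 11.7 and 7.58 in F1-18 and 17.2, 14.6 and 30.2 in F1-25. Its F2 values were 14.6, 11.9, 13.7 and 8.14 in F2-M18-G18, 10.6, 16.4 and 21.1 in F2-M25-G18, 12.1, 13.3, 9.03 and 6.35 in F2-M18-G25 and 8.98, 7.47 and 28.8 in F2-M25-G25. In this gene 2 of 4 F1-18 libraries lay below every F2 library, and F1-25 overlapped with F2. The differences in F1 were -1.41 ± 0.30 in thetaTry, -1.64 ± 0.56 in lambdaTry and -1.54 ± 0.41 in iotaTry (adjusted p = 0.00217, 0.0365 and 0.0093). The calls of lambdaTry and iotaTry were lost without F1-25 D (-1.15, adjusted p = 0.190, and -1.25, adjusted p = 0.0560), and that of lambdaTry also without F1-25 B (-1.74, adjusted p = 0.0794) and without F1-18 C (-1.14, adjusted p = 0.131). lambdaTry lost its call in 8 of 18 alternatives, also with only the groups compared in the fit (adjusted p = 0.0776) and with limma without trend (adjusted p = 0.0554). zetaTry ranged from 7.90 to 36.1 in F1-18, from 27.6 to 52.7 in F1-25 and from 3.64 to 18.5 in F2. etaTry ranged from 8.03 to 13.8, from 15.4 to 23.0 and from 4.26 to 16.5 in the same order, and neither was called in F1.

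Ser8 (2R, 13434207 to 13435045), a serine protease gene outside the arrays, had 4.31, 1.01, 1 and 3.7 in F1-18 and 17.7, 30.9 and 23 in F1-25. In F2 it had 5.57, 3.49, 3.24 and 11.3 in F2-M18-G18, 0.233, 0.0853 and 5.8 in F2-M25-G18, 3.03, 0.794, 2.73 and 3.54 in F2-M18-G25 and 0.699, 1.9 and 5.96 in F2-M25-G25. F1-18 lay below F1-25 without overlap, with a difference of -2.58 ± 0.49 (adjusted p = 0.00074). Ser6 (X) was low throughout, from 2.68 to 7.64 in F1-18, from 4.41 to 10.9 in F1-25 and from 1.68 to 9.63 in F2.

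The second comparison asks whether the F2 flies, all reared at 25 °C, differed by the temperature history of the flies that gave their microbiome and germline. No protease was called. When F2-M18-G18 was set against F2-M25-G25, limma called 0 of 25 members, where 3.26% of all genes tested were called, and 0 had an unadjusted p under 0.05. The differences ran from -0.38 ± 0.29 in alphaTry to 1.22 ± 1.07 in Jon25Biii, with a median of 0.37, and 18 of 25 were positive. The sign of the median depended on F2-M25-G25 C, since with that library entered where measured it was -0.30, and without F2-M18-G18 D it was 0.06. The SE of a difference was 0.24 to 1.07 log2 units, so that small differences were not detectable at this precision. The microbiome comparisons called 0 of 25 members as well, both on the cold germline (F2-M18-G18 against F2-M25-G18, 0.672% of genes called) and on the control germline (F2-M18-G25 against F2-M25-G25, 0.0265% of genes called). The unadjusted p was under 0.05 for Ser8 in the former (1.15 ± 0.49, adjusted p = 0.271 by limma) and for Jon99Fii in the latter (-1.49 ± 0.67, adjusted p = 0.595 by limma). The germline comparisons gave 0 of 25 calls when both groups had the cold microbiome (F2-M18-G18 and F2-M18-G25, 2.06% of genes called, 0 members with an unadjusted p under 0.05) and 0 of 25 with the control microbiome (F2-M25-G18 against F2-M25-G25, 8.01% of genes called). In the last of these, 2 members had an unadjusted p under 0.05, Jon99Cii (1.71 ± 0.69, adjusted p = 0.126 by limma) and zetaTry (0.90 ± 0.41, adjusted p = 0.176 by limma). With the other labels of the crossed groups, the microbiome and germline names of these 4 comparisons are exchanged and the values stand. The interaction of microbiome and germline called 0 of 25 members, where 0.00885% of genes were called, with 0 unadjusted p under 0.05. These shares of all genes rest on single libraries. Without F2-M25-G25 A, the number of genes called against F2-M25-G25 fell from 369 to 0 for F2-M18-G18 and from 905 to 3 for F2-M25-G18, and without B to 72 and 119. It fell from 233 to 2 in F2-M18-G18 against F2-M18-G25 without F2-M18-G25 B and to 4 without C, and from 76 to 4 in F2-M18-G18 against F2-M25-G18 without F2-M25-G18 D.

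The F2 result for betaTry depended on the fit. It was lower in F2-M18-G25 (17.9, 9.48, 13.6 and 14.5) than in F2-M25-G25 (28.2, 52.2 and 52.1) without overlap, with a difference of -1.52 ± 0.74 (adjusted p = 0.634). With only these groups in the fit it was called (-1.52, adjusted p = 0.0275), as was alphaTry (-0.46, adjusted p = 0.0288). F2-M18-G18 D, at 190.1, was far above the other F2-M18-G18 libraries of betaTry. In a fit without F1-18 C and F2-M18-G18 D, chosen after the values were seen, betaTry was called lower in F2-M18-G18 than in F2-M25-G18 (-1.94, adjusted p = 0.00959).

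The third comparison sets the generations side by side. In the libraries of the tests, control flies of F1 had far more protease transcript than control flies of F2, although both lived at 25 °C. Of 25 members, 22 were called higher in F1-25 than in F2-M25-G25, where 4.79% of all genes tested were called higher, and 0 were called lower. Of the 19 members that passed the filter without F1-25, 16 were called. The median difference of the 25 was 3.11. It includes the 6 members that passed the filter only with F1-25, so a part of its size was built in. The difference was 6.89 ± 0.79 in Jon25Bi and 5.54 ± 0.65 in Jon99Fi, both among those 6. It was 5.45 ± 0.88 in epsilonTry and 5.04 ± 0.79 in betaTry (adjusted p = 3.07e-05, 3.07e-05, 0.000793 and 0.000605 for the 4 genes). In alphaTry and Jon65Aiii the difference was 1.66 ± 0.30 and 2.13 ± 0.34 (adjusted p = 0.00192 and 0.000788). etaTry (1.07 ± 0.35), iotaTry (0.56 ± 0.44) and yip7 (1.08 ± 0.34) were not called (adjusted p = 0.0628, 0.527 and 0.0542). Every F2 library of the tests was below every F1-25 library in 20 of the 25 members, and this held for 4.81% of all genes tested. These 20 include Jon25Bi, Jon25Bii, Jon44E, Jon65Ai, Jon99Fi and Ser8. Those passed the filter only with the F1-25 libraries, so a part of their separation was built into their entry. Under the alternatives the call was lost most often in kappaTry and lambdaTry (7 alternatives each) and Jon65Aii (6). The comparison leaves out replicate C of F2-M25-G25, and with that library entered where it was measured 16 of 25 members were called. Generation cannot be told apart from the washing of F2 embryos and their transfer to food prepared with faeces of F1 males.

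Among flies with a cold history the same comparison gave fewer calls. Of 25 members, 5 were called higher in F1-18 than in F2-M18-G18, where 7.47% of genes were called higher, and 0 were called lower. These were Jon74E (2.85 ± 0.60), betaTry (3.50 ± 0.68), alphaTry (1.39 ± 0.23), Jon65Aiii (1.15 ± 0.26) and Jon65Aiv (0.72 ± 0.24), with adjusted p of 0.00319, 0.00174, 0.00063, 0.00569 and 0.0447. The call of Jon65Aiv was lost in 9 of 20 alternatives. In Jon25Bi (0.36 ± 0.69), Jon99Fi (-0.02 ± 0.57) and Jon99Fii (-0.09 ± 0.62) the difference was smaller than its SE. None of these was called (adjusted p = 0.766, 0.987 and 0.941 by limma). They are 3 of the 4 genes with the largest differences in F1, and the same F1-18 values enter both comparisons. F1-18 C was the lowest of its group in them, at 0, 0.511 and 0.425. Whether the groups are close in these genes therefore cannot be read from these differences. The count depended on F1-18 C. Without it, 12 members were called, 11 higher and iotaTry lower (-1.18, adjusted p = 0.0391), with Jon25Biii (2.62, adjusted p = 0.0165) and epsilonTry (2.0, adjusted p = 0.0237) among those gained. This comparison and the one in control flies differ also in rearing temperature, since F1-18 flies lived at 18 °C and F2-M18-G18 flies at 25 °C.

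The F1 temperature difference (F1-18 against F1-25) was tested directly against the F2 history difference (F2-M18-G18 against F2-M25-G25), as the former minus the latter. The same value is the difference between the generation effects in cold and control flies. It was called in 10 of 25 members, all lower, where 3.59% of genes were called lower. Of the 10, 5 (Jon65Aiv, Jon99Cii, Jon99Ciii, Jon99Fii and epsilonTry) passed the filter without the F1-25 libraries, and the other 5 passed only with them. The 10 were Jon25Bi, Jon25Bii, Jon65Ai, Jon65Aiv, Jon99Cii, Jon99Ciii, Jon99Fi, Jon99Fii, epsilonTry and Ser8, with -6.53 ± 1.05 in Jon25Bi and -5.56 ± 0.87 in Jon99Fi at the upper end of size and -1.61 ± 0.39 in Jon65Aiv at the lower end (adjusted p = 0.00152, 0.00121 and 0.0197). Without F1-25 D 6 were called, and with replicate C of F2-M25-G25 entered where measured 2 were called. The call of Jon99Ciii was lost in 16 of 26 alternatives and that of epsilonTry in 8 of 26.

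**Figure D3:**
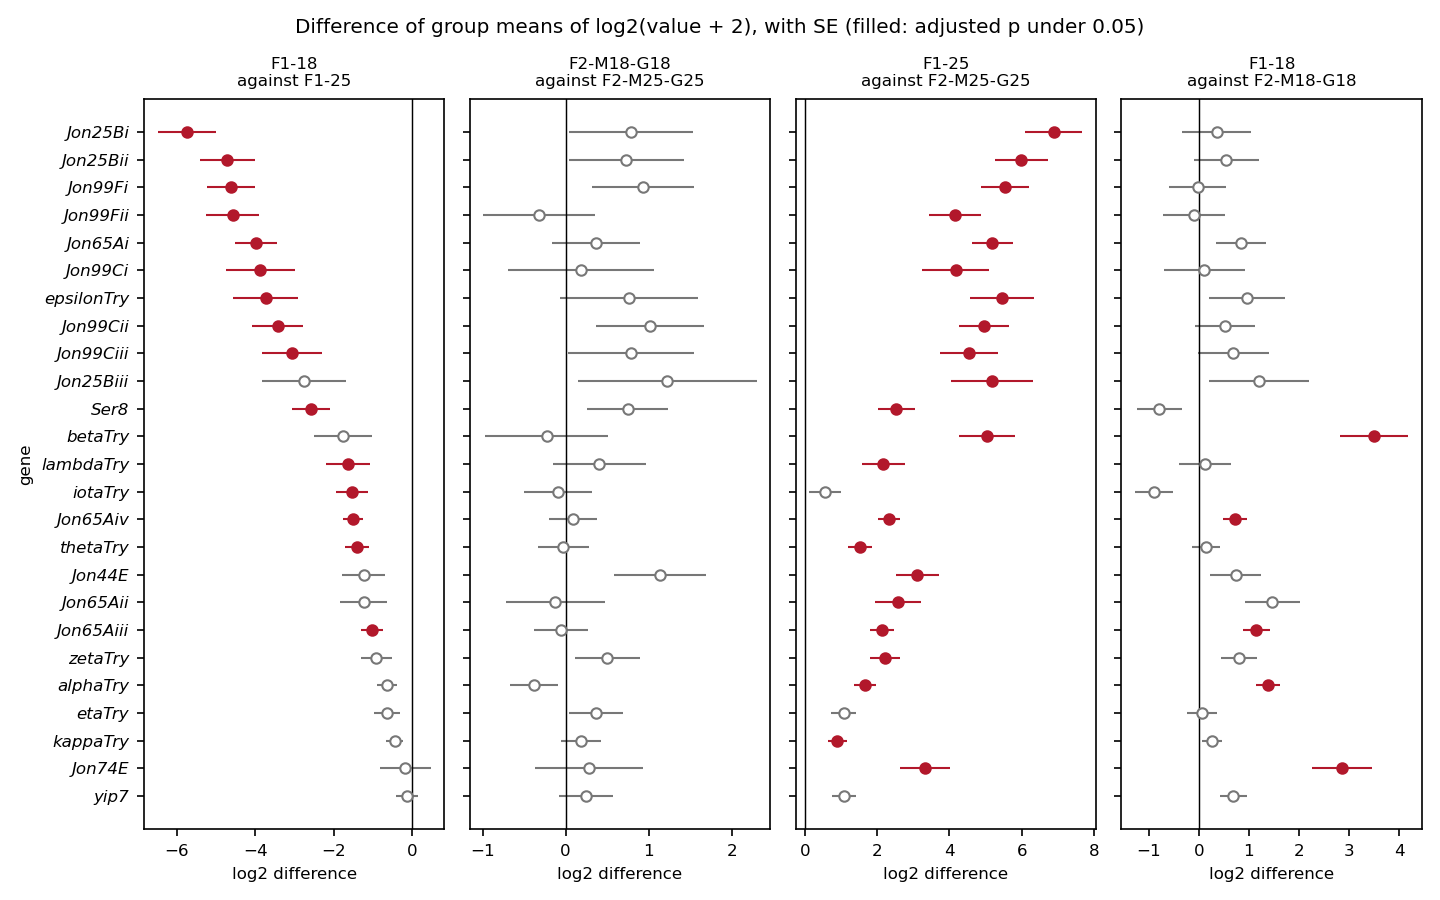
Points are differences of group means of log2(value + 2) for the 25 members tested, bars are SE, and filled points have an adjusted p under 0.05. All points are below 0 in F1-18 against F1-25 with 15 filled, none is filled for F2-M18-G18 against F2-M25-G25, 22 are filled in F1-25 against F2-M25-G25 and 5 in F1-18 against F2-M18-G18.

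Replicate C of F2-M25-G25 differed from every other F2 library in these genes. In the 22 members measured in it, its value was above the values of all 14 other F2 libraries in 22 of 22, where this held for 14.4% of the 4152 genes tested and measured in it. The sum of the 22 members was 3138 in this library, 122, 211 and 387 in the other replicates of its group, at most 665 in any other F2 library, and 3003 to 7280 in F1-25. Jon25Bi had 142 against at most 16.9 in the other F2 libraries, betaTry had 1011 against at most 190.1, and Jon99Ci had 314 against at most 55.6. In 17 of the 22 members it reached at least the lowest F1-25 value. The exceptions were Jon65Ai (35.2), Jon74E (67.3), Jon99Fi (59), Jon99Fii (226) and betaTry. The median distance of its members from the mean of F1-25 was 0.54 on the log2 scale, against 2.51 from F1-18 and 3.11 from the other replicates of its own group. It was 3.06 to 3.83 from the other F2 groups. Over all 4152 genes the distances were 0.27 to 0.34 from the 6 groups, with 0.27 from F2-M25-G18 and 0.29 from F1-25. These are descriptions of 1 library.

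**Figure D4:**
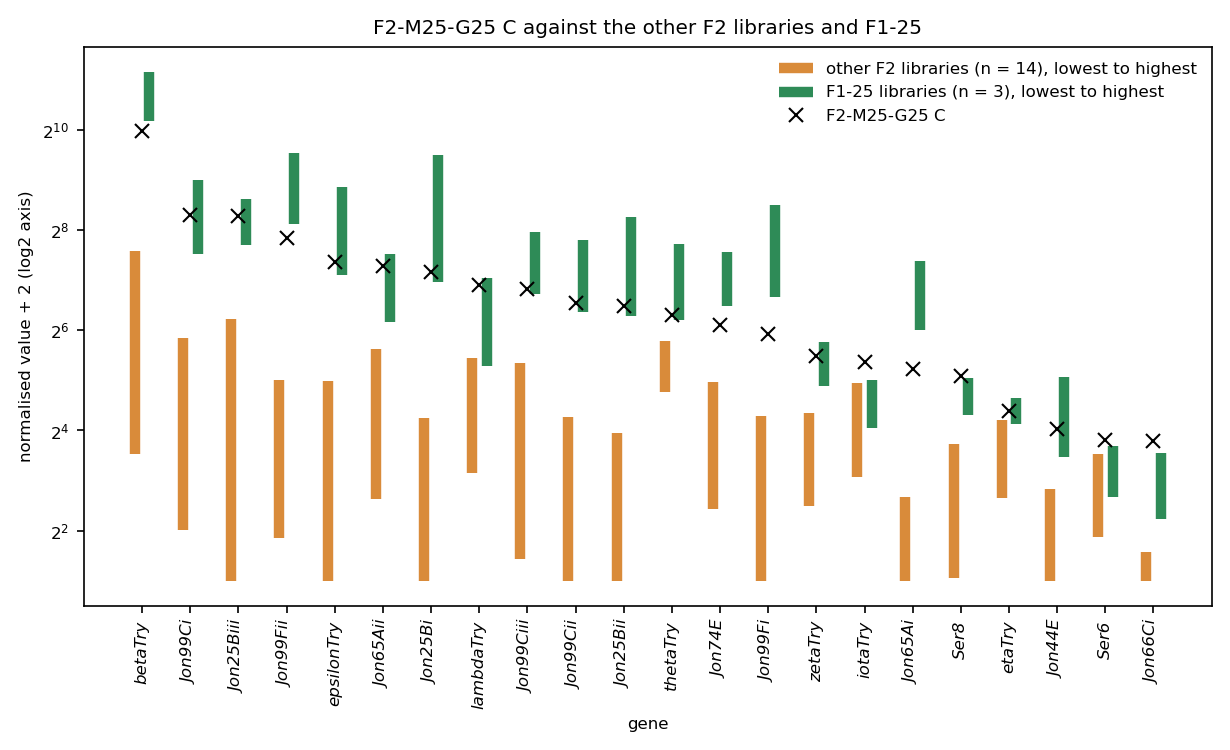
For the 22 members measured in it, the cross is the normalised value + 2 of F2-M25-G25 C on a log2 axis, the orange bar spans the other 14 F2 libraries and the green bar the 3 F1-25 libraries. The cross is above the orange bar in 22 of 22 genes and at or above the lower end of the green bar in 17.

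Neighbours in the arrays did not all move alike. Over the 20 libraries that remain when F2-M25-G25 C and D are left out, which fall into the same 6 groups, the Spearman correlation was 0.941 between Jon25Bi and Jon25Bii, 0.892 between Jon99Cii and Jon99Ciii, 0.884 between alphaTry and betaTry and 0.878 between Jon65Aiii and Jon65Aiv. It was 0.693 between Jon65Ai and Jon65Aii and 0.397 between thetaTry and etaTry, 290 bp apart on the same strand. With the mean profile of the 25 tested members, which contains each of them, zetaTry had the highest correlation (0.961), followed by Jon25Biii (0.936) and Jon65Aii (0.913). iotaTry, at 0.283, had the lowest.

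Genes outside the list with the most similar profile were found by the Spearman correlation with this mean profile over the same 20 libraries. The first 8 were Pebp1 (0.970), CG6295 (0.966), PGRP-SC2 (0.965), CG17242 (0.955), CG17292 (0.949), CG12374 (0.946), Spn77Bc (0.941) and CG34026 (0.941). PGRP-SC2 encodes an amidase that degrades bacterial peptidoglycan, and Spn77Bc is a serpin, a family that includes inhibitors of serine proteases. CG12374 had means of 358 in F1-18 and 2129 in F1-25, and 2.32 to 192 in F2. PGRP-SC2 had means of 61.2 and 132 in the F1 groups and 6.37 to 45.5 in F2. CG6295 (187), PGRP-SC2 (142), CG17242 (153) and CG34026 (204) were measured in replicate C of F2-M25-G25, and in each it was above the F2 range.

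Other enzyme lists were read in the same fit, in which 2698 of the 11302 genes tested were called, 1262 higher and 1436 lower in F1-18. Of 13 maltases and amylases, enzymes of starch and sugar digestion, 1 was called lower and 0 higher, with a median of -0.24. Mal-A3 fell (-2.04 ± 0.48, adjusted p = 0.00451), and Mal-A4 (-1.21 ± 0.46) and Mal-B1 (0.43 ± 0.17) had the next smallest p without a call (adjusted p = 0.0604 and 0.0731). Between F1-25 and F2-M25-G25, 6 of the 13 were higher and 1 lower in F1-25, among them Amyrel (3.47 ± 0.76), Amy-p (2.91 ± 0.56) and Amy-d (2.75 ± 0.50) (adjusted p = 0.006, 0.00277 and 0.0019). Of 6 other trypsin-like proteases with a row, 2 were lower in F1-18 with a list median of -0.45. CG17571 fell by 1.88 on the log2 scale (adjusted p = 0.000345) and Sems, a protease of the seminal fluid, by 1.09 (adjusted p = 0.000878), while Try29F was not called (0.89 ± 0.36, adjusted p = 0.0715). Of 3 lysozymes with a row, LysE was lower (-1.04 ± 0.18, adjusted p = 0.000266), LysX higher (1.35 ± 0.43, adjusted p = 0.0246) and LysP not called (0.83 ± 0.45, adjusted p = 0.19), with a median of 0.83.

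Genes of pathways linked to digestive enzyme expression in flies were also examined, namely the GATA factors GATAe and srp, the activin pathway genes daw, babo, put and Smox, the sugar sensors Mondo, bigmax and sug, the insulin-regulated factor foxo, and Rel, imd, PGRP-LC and PGRP-LE of the Imd immune pathway. Of these 14, 2 were called higher in F1-18, srp (0.48 ± 0.14, adjusted p = 0.0158) and Rel (0.29 ± 0.10, adjusted p = 0.0494), 0 were lower, and the list median was 0.14. foxo had the next smallest p (0.23 ± 0.09, adjusted p = 0.0629). GATAe differed by 0.07 ± 0.12 and daw by -0.05 ± 0.18, and neither was called. Against F2-M25-G25, Rel was lower in F1-25 (-0.43 ± 0.12, adjusted p = 0.0318) and it was the 1 call of the 14.

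Markers of the tissues that a whole male holds were read beside these results. Of 7 midgut markers with a row, mex1 alone was called in F1 (-0.89 ± 0.22, adjusted p = 0.00594), and cad (0.27 ± 0.13) and Myo31DF (-0.13 ± 0.12) had the next smallest p without a call. The list median was -0.13, and the summed level was 628 to 776 in F1-18, 670.4 to 859 in F1-25 and 659 to 802 in F2-M18-G18. Between F1-25 and F2-M25-G25, mex1 was again the 1 call (0.77 ± 0.24, adjusted p = 0.0467). F1-18 C had the lowest midgut sum of its group at 628, and F1-25 D the highest at 859. Of 8 male reproductive tract genes 6 were lower in F1-18, with a median of -0.37 and summed levels of 7772 to 10370 in F1-18 against 13340 to 13880 in F1-25, led by SP (-0.97 ± 0.14), Acp36DE (-1.0 ± 0.15) and Mst84Da (-0.32 ± 0.07). Of 4 muscle genes, Act88F (1.04 ± 0.26) and TpnC4 (0.75 ± 0.21) were higher in F1-18 and up was not called (0.29 ± 0.12), with a median of 0.60 and sums of 217200 to 272900 against 154200 to 198100. Of 6 larval fat body genes 0 were called in F1 by limma, 2 had an unadjusted p under 0.05, the median was 0.76, and the sums were 45150 to 84140 in F1-18 and 23730 to 56000 in F1-25, with the lowest in F1-25 D. In F2 the same 6 genes were all called higher in F2-M18-G18 than in F2-M25-G25 with a median of 3.05. There 3.26% of all genes tested and 0 of 25 protease members were called. F2-M18-G25 D had a fat body sum of 99950, against 8994 to 19450 in the rest of its group and 95800 to 114300 in F2-M18-G18. It was kept in the comparisons of F2-M18-G25. Yp2 was higher in F1-18 (2.39 ± 0.45, adjusted p = 0.000652) and Yp3 was not called (0.18 ± 0.26). The part of these tissues in the protease differences was not tested.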

How the data were processed

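RNA-seq libraries of total RNA were paired-end, stranded and depleted of ribosomal RNA. The authors trimmed the reads with Trimmomatic 0.32, aligned them to release 6 of the fly genome with STAR 2.4.0f1, counted uniquely aligned reads per gene with HTSeq 0.6.1 and normalised them by the TMM method of edgeR. The deposited values are the resulting normalised signal per gene at a common library size, not whole numbers, so a count test was not run. They were tested as log2(value + 2) with limma 3.58.1 in R 4.3.3 (moderated t with a mean-variance trend, two-sided, 1 mean for each of 6 groups, 21 libraries, Benjamini-Hochberg adjustment over 11302 genes). A gene was tested if 3 or more libraries had a value of 10 or above. F2-M25-G25 C was left out, and D of that group was set missing in the 7150 genes with calculated values. Low values gave whole reads, within 0.1 of a read, for at least 92.3% of low genes in 19 of 22 libraries. In the other 3 libraries the best step gave whole reads for 75.3% (F1-25 D), 79.3% (F2-M25-G25 D) and 23.6% (F2-M25-G25 A) of low genes. These shares were below the 90% required, so no step was taken for them. Totals stated by the study were not used as depth, since most differ from those the steps imply.

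The members and lists were chosen with earlier results of these data known. Values in every library are printed for the 10 members with the highest mean and every member called in F1 or F2, others by range. Up to 3 genes of each other list are named by the smallest p in F1. Further genes, such as GATAe, daw, Amy-p, Amy-d and Amyrel, were named after their values were seen. The 8 most similar genes were taken by Spearman correlation. Coordinates are from the Ensembl 115 annotation of release 6, in which 11888 of 12024 gene identifiers were found. No sequence is printed. Alternatives covered the pseudocount, the filter, the scaling, the libraries entered, the treatment of F2-M25-G25 C and D, the trend, the replicate block and leaving out each library. Summaries and figures used Python 3.11.15, numpy 2.4.6, pandas 2.3.3 and matplotlib 3.10.9. Libraries are 4 biological replicates a group per the methods of the study.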

Additional observations from a re-analysis of the deposited data

Results flagged for a closer look

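Some libraries lay far from the rest of their group of 4 in single members, with a gap to the nearest library above Dixon's 95% critical share of the group's range on the log2 scale. There were 13 such cases in 103 combinations of member and group examined. Members share libraries and vary together, so these cases are not independent and their number was not compared with chance. In F1-18 C, Jon65Aii was low at 15.4 (next library 65.2), Jon99Fi at 0.511 (7.53) and Jon99Fii at 0.425 (29.4). In F2-M18-G18 D, Jon25Bi was high at 16.9 (0.459), Jon25Bii at 13.4 (0.371) and epsilonTry at 29.9 (4.06). In F2-M25-G25 C, Jon25Bi was high at 142 (1.19), Jon25Bii at 88.0 (0.838), Jon66Ci at 11.8 (0.179), Jon99Fii at 226 (24.3) and betaTry at 1011 (52.2). The remaining cases were Jon25Bii in F2-M18-G25 C at 0.931 (0.0267), under the worth of 2 reads, and Ser6 in F2-M18-G25 A at 5.68 (2.69).

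In 10 members the temperature difference in F1 differed from the history difference in F2 by the limma contrast of both. Of these, Jon25Bi, Jon25Bii, Jon65Ai, Jon99Fi and Ser8 passed the filter only with the F1-25 libraries, so a part of their difference was built into their entry. The F1 difference minus the F2 difference was -6.53 ± 1.05 in Jon25Bi (adjusted p = 0.00152), -5.44 ± 0.98 in Jon25Bii (0.00361), -4.35 ± 0.75 in Jon65Ai (0.00269), -1.61 ± 0.39 in Jon65Aiv (0.0197) and -4.44 ± 0.92 in Jon99Cii (0.00804). It was -3.85 ± 1.07 in Jon99Ciii (0.0392), -5.56 ± 0.87 in Jon99Fi (0.00121), -4.25 ± 0.95 in Jon99Fii (0.0124), -4.49 ± 1.17 in epsilonTry (0.0279) and -3.32 ± 0.69 in Ser8 (0.00825).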

How the results depend on the processing

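The values are normalised signals whose depth is known in part, and low members rest on few reads. The count of members called in F1-18 against F1-25 was 12 to 19 under the settings other than leaving out a library, and 11 to 20 with 1 library left out. For F1-25 against F2-M25-G25 it was 16 to 23 and 17 to 23. For F1-18 against F2-M18-G18 it was 4 to 12 with 1 library left out (12 without F1-18 C) and 14 without F1-18 C and F2-M18-G18 D, a setting chosen after seeing the data. The F1 difference minus the F2 difference was called in 2 members with F2-M25-G25 C entered where measured, in 5 with C and D as in the file, and in 6 to 15 with 1 library left out. In F2 with only the groups compared in the fit, 2 members were called in F2-M18-G25 against F2-M25-G25 and 1, betaTry (0.93, adjusted p = 0.0406), in F2-M25-G18 against F2-M25-G25, where leaving out 1 library gave 0 to 1 (zetaTry, 1.40, adjusted p = 0.0336, without F2-M25-G25 D). Without F1-18 C and F2-M18-G18 D, 1 member was called in F2-M18-G18 against F2-M25-G18. Of all genes, 2698 were called in F1 and 1540 without F1-25 B, and 900 in F1-25 against F2-M25-G25 and 282 without F2-M25-G25 B. The cause of these changes was not tested. No called member changed direction under any setting run.

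Replicate letters were not used as pairs in the main fit, since the correlations of deviations between libraries with the same letter did not all exceed 0.1 in any comparison. This cut cannot exclude that the letters pair the samples. In F1 they ran from -0.286 to 0.102, with a mean below that between different letters (-0.134 against 0.0451). The mean was above it in F1-18 against F2-M18-G18 (0.117 against -0.0398, highest 0.317) in F2-M18-G18 against F2-M18-G25 (0.0889 against -0.0296) and, by little, in F2-M25-G18 against F2-M25-G25 (0.00955 against -0.00478). With the replicate block 15 members were called in F1-18 against F1-25, 22 in F1-25 against F2-M25-G25, 6 in F1-18 against F2-M18-G18 and 12 in the difference of differences, and 0 in F2.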
